A study of Mus musculus with 8 samples.

Results

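The genes described here encode 9 scavenger and efferocytosis receptors of macrophages: Msr1, Marco, Cd36, Mrc1, Cd163, Stab1, Lyve1, Mertk and Axl. They were taken as a named list of symbols, and all 9 were among the 31053 genes counted. Their unique molecular identifiers (UMIs, each the tag of 1 captured RNA molecule) were followed through leukocyte classes of mouse glioma and of normal mouse brain. In CPM (UMIs of the gene per 1000000 UMIs of the class), glioma macrophages carried Msr1, Mrc1, Axl and Cd36 at 12.6 to 184 times the levels of control microglia, and carried Mertk and Stab1 at 0.170 and 0.222 times those levels. Cd36 had 19.7 CPM in glioma macrophages, against 93.9 CPM in the 27 cells called macrophages in normal brain. These 27 cells were richer in monocyte markers than glioma macrophages. Cd163 and Lyve1 had 6.53 and 5.44 CPM in 43 glioma cells called border-associated macrophages, against 276 and 282 CPM in 228 control cells so called. These glioma and control cells were not alike in the markers that defined them. Cd209f had no UMI in the glioma cells, against 388 CPM in the control cells, and Folr2 had 89.3 CPM, against 400 CPM.

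Glioma samples were CD45+ cells sorted magnetically from the tumours of glioma-bearing mice, and control samples were CD45+ cells sorted the same way from normal mouse brain. The labels list 4 samples in each group and give no strain, age, sex, tumour model or tumour cell line. The cells were profiled by droplet single-cell RNA sequencing of transcript 3' ends, and the counts form 1 pooled library per group with no map from cells to samples. No test between glioma and control was therefore run: each value below is that of 1 library, and each interval is an exact 95% interval for counting error alone, which leaves out the spread between mice.

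Macrophages clear dead cells and altered lipoproteins through receptors of several unrelated families. Scavenger receptors bind modified lipids, sugars and carrier proteins directly. Efferocytosis receptors recognise the phosphatidylserine that dying cells expose, either directly or through a bridging molecule such as Gas6 or protein S. Gas6 is a ligand of the receptor tyrosine kinases Mertk and Axl, and protein S is a ligand of Mertk. In the resting mouse brain Mertk is known as a receptor by which microglia engulf apoptotic cells, while Mrc1, Cd163 and Lyve1 are known as markers of macrophages at the brain's borders, in the meninges and around vessels.

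All 9 are protein-coding genes, placed here on GRCm38 by their Ensembl identifiers in a GENCODE annotation. Msr1 (ENSMUSG00000025044) lies at chr8:39581685-39642673 on the minus strand and Marco (ENSMUSG00000026390) at chr1:120474538-120505024 on the minus strand. Cd36 (ENSMUSG00000002944) occupies chr5:17781690-17888801 on the minus strand, and Mrc1 (ENSMUSG00000026712) occupies chr2:14229392-14332057 on the plus strand. The position of Cd163 (ENSMUSG00000008845) is chr6:124304656-124330527 on the plus strand, that of Stab1 (ENSMUSG00000042286) is chr14:31139013-31168641 on the minus strand, and that of Lyve1 (ENSMUSG00000030787) is chr7:110850607-110863239 on the minus strand. Mertk (ENSMUSG00000014361) lies at chr2:128698956-128802894 on the plus strand and Axl (ENSMUSG00000002602) at chr7:25757273-25788705 on the minus strand. The 3' end of Stab1 overlaps that of Nt5dc2 on the other strand, and the antisense gene Gm14011 lies inside Mertk. Whether counting used the strand is not given in the sources used here, so reads of these overlapping stretches could have gone to either gene.

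The 250 bases before the start of 4 of these genes are shown because the results turn on these genes in pairs. Of the 8 states of glioma macrophages examined, Mrc1 and Stab1 were both lowest, by at least 2-fold, with monocyte genes. Both were highest, by at least 2-fold, with Mmp13 and Vcam1. Msr1, Mertk and the sparse Cd163 had their lowest and highest ratios in the same 2 states, Msr1 and Mertk within 2-fold. Mertk and Axl differed in opposite directions between glioma macrophages and control microglia. The sequences are RefSeq's, on GRCm38.p6, written 5' to 3' on the strand of the gene, with matches to the motifs searched in capitals. RefSeq's table held promoters for 7 of the 9 genes, not for Msr1 or Lyve1. The windows are chr2:14229164-14229413 (plus strand) for Mrc1, chr14:31168642-31168891 (minus strand) for Stab1, chr2:128698665-128698914 (plus strand) for Mertk and chr7:25788734-25788983 (minus strand) for Axl. The starts are RefSeq's. For Mrc1 the window runs into the gene as placed above, and for Mertk and Axl it ends short of the gene. The bases after the start were found in annotated transcripts for Mrc1 and Stab1, but not for Mertk and Axl.
Mrc1: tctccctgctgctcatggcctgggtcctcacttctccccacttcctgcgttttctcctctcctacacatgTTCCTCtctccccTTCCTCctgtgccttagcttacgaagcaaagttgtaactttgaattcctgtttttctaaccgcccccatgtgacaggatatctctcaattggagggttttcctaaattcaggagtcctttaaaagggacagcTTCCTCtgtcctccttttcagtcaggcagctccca
Stab1: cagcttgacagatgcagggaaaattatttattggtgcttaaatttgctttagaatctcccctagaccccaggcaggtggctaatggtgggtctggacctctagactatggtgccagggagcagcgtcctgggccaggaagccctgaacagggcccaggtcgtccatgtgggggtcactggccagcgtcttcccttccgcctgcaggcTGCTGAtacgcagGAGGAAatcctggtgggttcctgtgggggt
Mertk: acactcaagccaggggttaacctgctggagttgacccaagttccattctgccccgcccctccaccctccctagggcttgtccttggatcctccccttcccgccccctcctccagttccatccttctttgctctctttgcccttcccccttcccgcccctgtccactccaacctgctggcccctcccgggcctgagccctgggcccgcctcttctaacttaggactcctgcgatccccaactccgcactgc
Axl: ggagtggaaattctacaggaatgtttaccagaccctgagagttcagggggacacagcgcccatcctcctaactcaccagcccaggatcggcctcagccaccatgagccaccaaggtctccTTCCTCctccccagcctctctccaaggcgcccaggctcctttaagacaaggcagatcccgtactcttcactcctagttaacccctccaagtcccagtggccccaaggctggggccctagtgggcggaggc
The motifs searched on both strands were GAGGAA (the core bound by PU.1, which reads TTCCTC on the other strand), TGCTGA (a MAF half-site), TGANTCA (AP-1) and CACGTG (an E-box), and no matches overlapped each other. Of 32851 RefSeq promoters of this length, 23.3% held GAGGAA, 16.1% TGCTGA, 6.75% TGANTCA and 6.02% CACGTG. Mrc1 held 3 matches to GAGGAA, at 180, 167 and 35 bases before the start. Stab1 held GAGGAA at 30 and TGCTGA at 43 bases before its start, and Axl held GAGGAA at 130. The window of Mertk held none of the 4 motifs, which says only that these letters are not in it.

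After barcodes with fewer than 1000 UMIs or more than 10% mitochondrial UMIs were removed, 11049 glioma cells (median 11332 UMIs) and 13680 control cells (median 6842 UMIs) remained, and 41 cell barcodes occurred in both libraries. Ptprc, which encodes CD45, was seen in 89.5% of glioma cells and 73.0% of control cells, but in 8.25% of the 97 control cells that passed the endothelium gate. Cells were classed by gates on the UMIs of marker genes, none of them a member. The macrophage gate asked for at least 6 UMIs of a list of macrophage markers, Fcgr1, Csf1r, Adgre1 and Ms4a7 among them, over at least 2 of its genes. Border macrophages were called first, whatever their microglia markers. They were cells past this gate with at least 2 UMIs of Cbr2, Folr2 and Cd209f and at least 3 of Pf4. The rest were called microglia if they had at least 10 UMIs over at least 5 of 8 microglia markers (P2ry12 and Tmem119 among them). Cells with neither set, and with fewer than 5 microglia marker UMIs per 10000, were called macrophages. Cells that passed the macrophage gate and fell between these classes, 67 in glioma and 496 in control, were given no class and enter none of the values or orders below. Nor do the cells that passed no gate, 1975 in glioma (median 4941 UMIs) and 718 in control (median 1463 UMIs). Those of glioma held 1748 CPM of monocyte markers. Glioma held 6285 macrophages (median 13925 UMIs), 43 border macrophages and 30 microglia, and control held 27 macrophages, 228 border macrophages (median 8907.5 UMIs) and 11402 microglia (median 7033.5 UMIs).

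The gates did not give like cells in the 2 libraries. The 8 microglia markers summed to 1488 CPM in glioma microglia, against 10528 CPM in control microglia, and each of them was detected in both. Control border macrophages held 3349 CPM of these microglia markers, against 145 CPM in glioma border macrophages. Of the gate markers themselves, Cd209f had 0 UMIs in glioma border macrophages, against 388 CPM in control border macrophages, and Folr2 had 89.3 CPM, against 400.0 CPM. Control macrophages held 4526 CPM of the monocyte markers Ly6c2, Chil3, Vcan and Plac8, against 1196 CPM in glioma macrophages. The part of these differences in the results on the receptors was not tested.

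**Figure D1:**
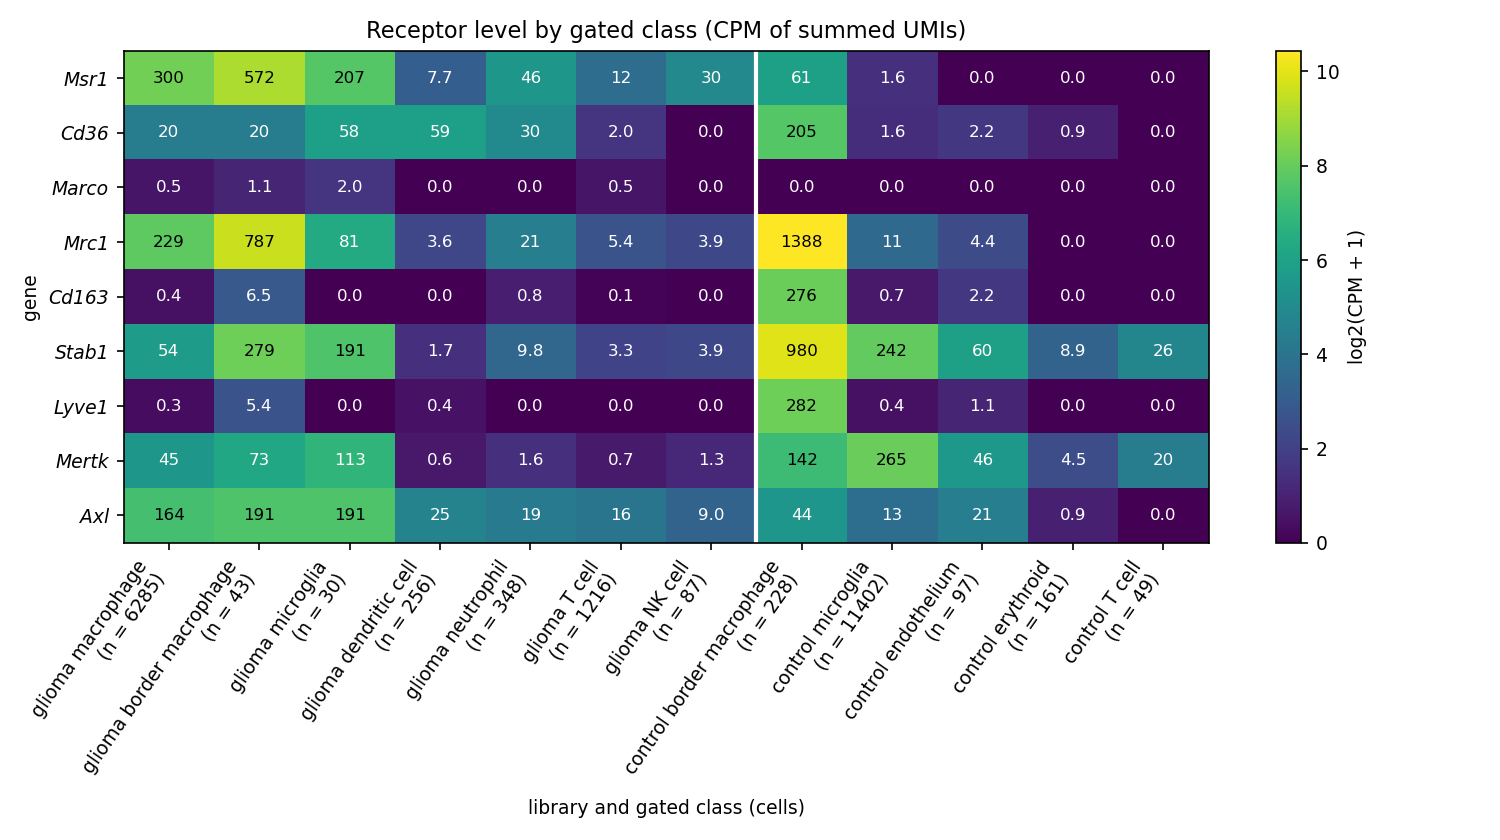
CPM of each receptor (rows) in gated classes (columns) of the glioma library, left of the white line, and of the control library, right of it, with the number of cells under each class; colour is log2(CPM + 1). Msr1 and Axl were high in glioma classes of the macrophage line, Mertk was highest in control microglia, and Cd163 and Lyve1 were high only in the column of control border macrophages.

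The first comparison set the main myeloid class of the tumour, glioma macrophages, against that of normal brain, control microglia. Msr1, Mrc1, Marco, Axl and Cd36 were at least 2-fold higher in glioma macrophages, and Stab1 and Mertk were at least 2-fold lower. All 9 receptors passed the minimum of 20 UMIs over both classes, so 5 of 9 were higher, Marco among them on 48 and 2 UMIs, and 2 of 9 were lower. Over the 14562 genes that passed, 16.6% were at least 2-fold higher and 33.2% at least 2-fold lower. The median log2 ratio was 3.65 for the receptors and -0.39 for all these genes. The 2 classes differ in cell type as well as in tissue. The same gate found 27 macrophages in control, where 3 UMIs are worth 10.8 CPM. This class held 4526 CPM of monocyte markers, against 1196 CPM in glioma macrophages, so it was not a class of like cells. Msr1 had 300.3 CPM in glioma macrophages, against 39.7 CPM (19.8 to 71.1) in these control macrophages, Mrc1 had 229 CPM, against 61.4 CPM (35.8 to 98.3), and Axl had 164 CPM, against 86.7 CPM (55.5 to 129). These 3 were higher in glioma macrophages than in control macrophages as well as in control microglia. Cd36 lay the other way, with 19.7 CPM in glioma macrophages, against 93.9 CPM (61.4 to 138) in control macrophages. Stab1 and Mertk were not lower against this class, at 53.7 and 45.1 CPM in glioma macrophages, against 25.3 CPM (10.2 to 52.1) and 21.7 CPM (7.95 to 47.2) in control macrophages, the intervals of Mertk overlapping.

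**Figure D2:**
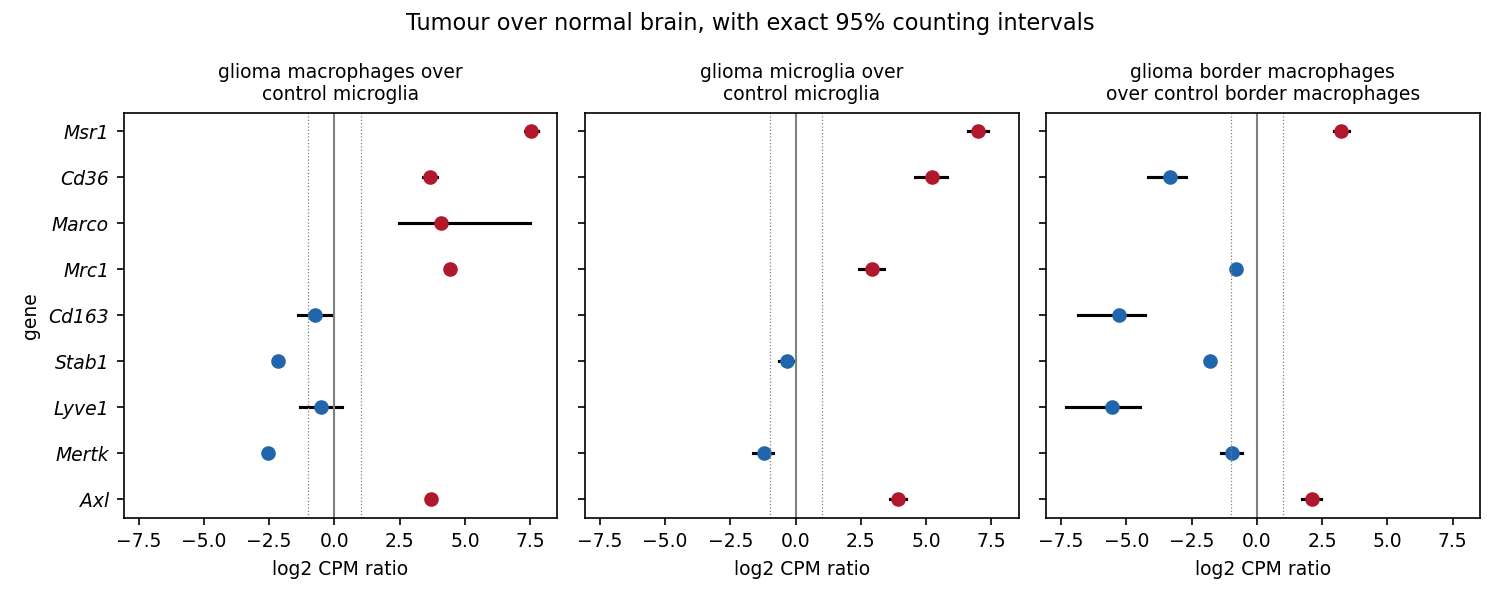
Log2 ratio of CPM, glioma over control, for each receptor in 3 comparisons: glioma macrophages over control microglia, glioma microglia over control microglia, and glioma border macrophages over control border macrophages. Points are ratios (red above 0, blue below), bars are exact 95% counting intervals and dotted lines mark 2-fold; no point is drawn where there was no fold. Msr1 and Axl lay above 2-fold in all 3 panels, while Cd36 lay at 5.22 in microglia and at -3.35 in border macrophages.

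Msr1, the class A scavenger receptor that takes up modified lipoproteins and polyanions, had 300.3 CPM in glioma macrophages (296.8 to 303.8), against 1.62 CPM in control microglia (1.36 to 1.92). The log2 ratio was 7.53 (7.29 to 7.79). Cells were also thinned to 2000 UMIs, so that depth could not set the share of cells with a UMI. Thinned shares, here and below, leave out cells with fewer UMIs, and shares without thinning cover all cells. The thinned cells were 6266 glioma macrophages, 226 control border macrophages and 10860 control microglia. With this thinning, 42.0% of glioma macrophages and 0.203% of control microglia held an Msr1 UMI (88.1% and 1.08% without thinning). Glioma T cells, which should lack the gene, gave 2.66% at a median of 7500 UMIs before thinning. Msr1 also stood at 572 CPM in glioma border macrophages, against 60.6 CPM in control border macrophages, and at 207 CPM in the 30 glioma microglia. The highest control class of at least 50 cells was thus still below the glioma macrophages, and its interval overlapped that of glioma neutrophils, at 45.5 CPM. Over the 9 classes of at least 50 cells, the genes whose log2(CPM + 1) followed Msr1 most closely, of 10428 compared, were Hpse (Pearson r 0.965), which encodes heparanase, Mmp19 (0.951), a matrix metalloproteinase, and Tgfbi (0.949), a matrix protein. These points come from only 2 libraries and share their free RNA, here and for each gene below.

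Marco, the other class A receptor, known from marginal zone and alveolar macrophages, had few UMIs, with 48 UMIs in all glioma macrophages (0.502 CPM) and 2 UMIs in control microglia (0.0239 CPM), a log2 ratio of 4.09 (2.46 to 7.48). Glioma T cells held 0.511 CPM, 6 UMIs in 2 cells, and the intervals of the 2 classes overlapped. In control border macrophages no Marco UMI was seen, which allows up to 1.39 CPM (3 UMIs).

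Cd36, the class B receptor for oxidised lipoproteins, long-chain fatty acids and thrombospondin, had 19.7 CPM in glioma macrophages (18.8 to 20.6), against 1.56 CPM in control microglia (1.31 to 1.85), a log2 ratio of 3.65 (3.40 to 3.92). Its highest level was in control border macrophages, at 205 CPM, and glioma dendritic cells (58.6 CPM) and glioma neutrophils (30.1 CPM) also stood above glioma macrophages, with intervals that did not overlap. The 27 control macrophages held 93.9 CPM (61.4 to 138). At 2000 UMIs, 3.37% of glioma macrophages, 29.6% of control border macrophages and 0.129% of control microglia held a Cd36 UMI (15.4%, 59.6% and 0.614% without thinning), against 0.249% of glioma T cells. Serpinb8 (r 0.940), Ccl2 (0.901), which encodes a monocyte chemokine, and Gm6377 (0.901) had the most similar pattern over classes.

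Mrc1, the mannose receptor CD206, which binds mannose-ended sugars and collagen, had 229 CPM in glioma macrophages (226 to 232), against 10.7 CPM in control microglia (10.04 to 11.5), a log2 ratio of 4.41 (4.32 to 4.51). Control border macrophages held the most, at 1388 CPM, and the 43 glioma border macrophages held 787 CPM. At 2000 UMIs, an Mrc1 UMI was seen in 26.8% of glioma macrophages, 86.7% of control border macrophages and 1.80% of control microglia (60.8%, 97.4% and 5.54% without thinning), against 1.5% of glioma T cells. Pf4 (r 0.966), Siglec1 (0.966), a sialic acid-binding receptor of macrophages, and Ccl8 (0.964), a chemokine, were the nearest genes, and Pf4 is itself a marker of the border macrophage gate.

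Cd163, which clears haemoglobin bound to haptoglobin, was a receptor of normal border macrophages. It had 276 CPM in control border macrophages (254 to 299), against 0.656 CPM in control microglia (0.494 to 0.854). Glioma macrophages held 0.387 CPM (37 UMIs), which overlapped control endothelium (2.20 CPM, 2 UMIs) and glioma neutrophils (0.813 CPM, 1 UMI) in their intervals. The log2 ratio of glioma macrophages over control microglia was -0.76 (-1.40 to -0.14), between levels close to background in both. The nearest genes, Folr2 (r 0.995), Cbr2 (0.991) and Cd209f (0.965), are all markers of the border macrophage gate.

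Stab1, a large scavenger receptor of macrophages and sinusoidal endothelium that also binds phosphatidylserine, had 53.7 CPM in glioma macrophages (52.2 to 55.2), against 242 CPM in control microglia (238 to 245). The log2 ratio was -2.17 (-2.21 to -2.13). Control border macrophages were higher still at 980 CPM, and glioma border macrophages held 279 CPM. The share of cells with a UMI at 2000 UMIs was 9.10% in glioma macrophages, 69.0% in control border macrophages and 37.9% in control microglia (37.0%, 96.1% and 75.0% without thinning). Glioma T cells gave 0.664%, and 4 of 49 control T cells (8.16%) held a UMI, with free RNA of the control library at 143 CPM of Stab1. Hs1bp3 (r 0.989), Ang (0.965), which encodes angiogenin, and Etv1 (0.963), an ETS transcription factor, followed it most closely.

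Lyve1, the hyaluronan receptor of lymphatic endothelium and of macrophages beside vessels, had 282 CPM in control border macrophages (260 to 305), against 0.370 CPM in control microglia (0.251 to 0.525). Glioma macrophages held 25 UMIs in all, or 0.261 CPM, and neither glioma microglia nor glioma T cells held any. The log2 ratio of glioma macrophages over control microglia, -0.50 (-1.32 to 0.31), did not separate the classes. Cbr2 (r 0.992), Folr2 (0.990) and Cd209f (0.981) were nearest, the same gate markers as for Cd163.

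Mertk, the kinase by which macrophages bind Gas6 and protein S on dying cells, had 45.1 CPM in glioma macrophages (43.7 to 46.5), against 265 CPM in control microglia (261 to 268). The log2 ratio was -2.55 (-2.60 to -2.51). Control microglia were the highest of all classes of at least 50 cells, followed by control border macrophages at 142 CPM. Next came control endothelium at 46.1 CPM and the glioma macrophages, whose intervals overlapped. At 2000 UMIs, 8.01% of glioma macrophages, 24.8% of control border macrophages and 40.6% of control microglia held a UMI (39.4%, 60.96% and 78.4% without thinning). The share was 0.166% in glioma T cells and 4.08% (2 of 49) in control T cells, and free RNA of the control library held 140 CPM. Crat (r 0.988), which encodes carnitine acetyltransferase, Rin2 (0.983), an exchange factor of endocytic GTPases, and Pald1 (0.977) had the most similar pattern.

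Axl, the related kinase, which is known to be induced in inflamed macrophages, ran the other way. It had 164 CPM in glioma macrophages (161 to 166), against 12.6 CPM in control microglia (11.9 to 13.4), a log2 ratio of 3.70 (3.61 to 3.79). Glioma border macrophages and glioma microglia each held 191 CPM, and control border macrophages held 44.4 CPM. The 27 control macrophages stood at 86.7 CPM (55.5 to 129). At 2000 UMIs, 24.3% of glioma macrophages and 1.73% of control microglia held a UMI (71.9% and 5.47% without thinning), against 2.49% of glioma T cells. In the control library itself, T cells held no Axl UMI, which allows up to 9.90 CPM, endothelium held 20.9 CPM and free RNA 11.2 CPM. Abcg3 (r 0.970), Tpcn2 (0.954), an endolysosomal cation channel, and Slc25a28 (0.925), a mitochondrial iron carrier, were nearest to Axl over classes.

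**Figure D3:**
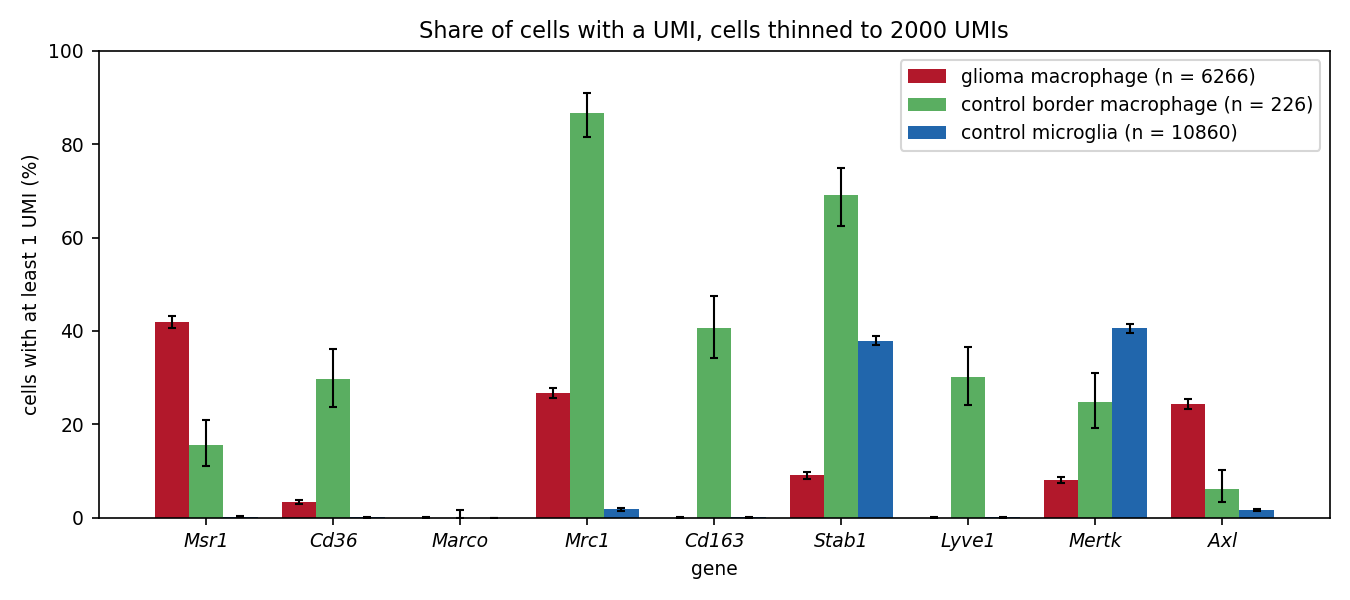
Share of cells (%) with at least 1 UMI of each receptor after thinning to 2000 UMIs, in glioma macrophages (red), control border macrophages (green) and control microglia (blue). Cells with fewer than 2000 UMIs are left out. Bars start at 0 and error bars are exact 95% binomial intervals. Msr1 was seen in 42.0% of glioma macrophages, Mrc1 in 86.7% of control border macrophages and Mertk in 40.6% of control microglia.

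The few microglia that the gate found in the tumour were then set against control microglia. Msr1, Cd36, Axl and Mrc1 were at least 2-fold higher in the 30 glioma microglia, and Mertk was at least 2-fold lower. Of the 9 receptors, 8 passed the minimum of 20 UMIs, 4 were higher and 1 lower, beside 12.3% of 13417 genes higher and 12.3% lower. Msr1 had 207 CPM in glioma microglia, against 1.62 CPM in control microglia, a log2 ratio of 6.99 (6.61 to 7.37). Cd36 had 57.6 CPM, against 1.56 CPM (5.22, 4.57 to 5.79), and Axl had 191 CPM, against 12.6 CPM (3.93, 3.60 to 4.22). Mrc1 had 81.5 CPM in glioma microglia, against 10.7 CPM in control microglia (2.94, 2.44 to 3.38), and Mertk 113 CPM, against 265 CPM (-1.21, -1.63 to -0.85). Stab1, at 191 CPM against 242 CPM, had a log2 ratio of -0.33 (-0.65 to -0.05).

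Cd163 and Lyve1 had no UMI in glioma microglia, which allows up to 5.96 CPM, above their levels in control microglia, so no fold was given. These rows rest on few UMIs, 104 for Msr1 and 29 for Cd36. Glioma T cells, a class outside the macrophage line, held 12.3 CPM of Msr1, 15.8 CPM of Axl, 5.45 CPM of Mrc1 and 1.96 CPM of Cd36. In glioma NK cells there were 29.5 CPM of Msr1, 8.98 CPM of Axl, 3.85 CPM of Mrc1 and no Cd36 UMI. The median glioma microglial cell had 17425 UMIs, against 7033.5 in control microglia, and the gates could not separate droplets that held a microglial cell together with a macrophage. The part of such droplets was not tested.

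Cells called border macrophages in tumour were set against those so called in normal brain, which were not like cells, as given above. Lyve1, Cd163, Cd36 and Stab1 were at least 2-fold lower in glioma border macrophages, and Msr1 and Axl were at least 2-fold higher. Of the 9 receptors, 8 passed the minimum, 2 were higher and 4 lower, beside 14.9% of 8482 genes higher and 16.3% lower. The median over the receptors was -1.38, beside 0.03 for all genes.

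Lyve1 had 5.44 CPM (5 UMIs) in glioma border macrophages, against 282 CPM in control border macrophages, a log2 ratio of -5.56 (-7.32 to -4.47). Cd163 had 6.53 CPM (6 UMIs), against 276 CPM (-5.29, -6.85 to -4.27). Cd36 followed at 19.6 CPM in glioma border macrophages, against 205 CPM in control border macrophages (-3.35, -4.15 to -2.71), and Stab1 at 279 CPM, against 980 CPM (-1.81, -2.01 to -1.63). Lyve1 and Cd163 thus had the lowest ratios of the 9 receptors.

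Msr1 had 572 CPM in glioma border macrophages, against 60.6 CPM in control border macrophages (3.23, 2.96 to 3.53), and Axl 191 CPM, against 44.4 CPM (2.10, 1.73 to 2.48). Mrc1 at 787 CPM against 1388 CPM (-0.82, -0.94 to -0.70) and Mertk at 72.9 CPM against 142 CPM (-0.95, -1.36 to -0.58) stayed within 2-fold. With at most 5% mitochondrial UMIs, which left 14 glioma and 153 control border macrophages, Mertk passed 2-fold at -2.01 and Cd36 moved to -1.89. The 42 glioma and 87 control border macrophages that held fewer than 20 microglia marker UMIs per 10000, a limit added after the data were seen, gave 2 receptors higher and 4 lower as well.

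Within normal brain, border macrophages were set against microglia, a comparison added after the values were seen. Lyve1, Cd163, Cd36, Mrc1, Msr1, Stab1 and Axl were at least 2-fold higher in control border macrophages, and none of the 8 receptors that passed was at least 2-fold lower, beside 13.4% and 9.65% of 13493 genes. The log2 ratio was 9.55 for Lyve1 (9.05 to 10.15), 8.70 for Cd163 (8.32 to 9.14) and 7.03 for Cd36 (6.75 to 7.33). Mrc1 had 7.02 (6.91 to 7.13), Msr1 5.22 (4.87 to 5.58), Stab1 2.02 (1.95 to 2.08) and Axl 1.82 (1.5 to 2.12). Mertk, at 142 CPM in control border macrophages against 265 CPM in control microglia, had -0.90 (-1.06 to -0.74).
Without the border macrophages rich in microglia markers, which then count as microglia, these ratios were 7.13 for Lyve1, 6.65 for Cd163, 6.04 for Cd36 and 6.01 for Mrc1, and 7 receptors were still at least 2-fold higher.

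The receptors were also read across states of the 6285 glioma macrophages, each state being cells with at least 3 UMIs of its genes, set against cells with none. States overlap, depths differ between the sides, and both sides come from 1 library. The genes of the monocyte state, Ly6c2, Chil3 and Vcan, are known from monocytes newly come from the blood. Mrc1, Stab1 and Cd163 were at least 2-fold lower in the 2237 monocyte-marker macrophages than in the 2654 without these UMIs, and no receptor was higher, beside 3.83% of 12154 genes lower and 2.75% higher. Mrc1 had 135 CPM in monocyte-marker macrophages, against 297 CPM in the others (-1.14, -1.19 to -1.09), and Stab1 had 34.0 CPM, against 71.1 CPM (-1.07, -1.17 to -0.96). Axl (-0.61), Mertk (-0.51) and Msr1 (-0.31) were also below 0 but within 2-fold. Cd36 had -0.15 (-0.311 to 0.004), an interval that held 0. Cd163 rested on 6 and 25 UMIs. The median depth was 10428 UMIs with the monocyte genes and 16119 without. With at most 5% mitochondrial UMIs only 1 of the 3 calls stood, with Mrc1 at -1.03 and Stab1 at -0.91. The ratio of Cd163 lay between -2.08 and -1.05 in every setting that gave one, so its call was lost on its few UMIs.

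Cells with Mmp13, a collagenase, or Vcam1, an adhesion molecule, gave the opposite picture. Their depth also ran the other way, with a median of 18758 UMIs, against 10259.5 in cells without these genes. Mrc1 had 334 CPM in the 2444 cells with these genes, against 105 CPM in the 2812 without (1.68, 1.62 to 1.73), and Stab1 had 71.5 CPM, against 30.8 CPM (1.22, 1.12 to 1.32). Mertk (0.72), Axl (0.64), Msr1 (0.59) and Cd36 (0.30) lay above 0 within 2-fold. Counting Marco and Cd163, which had at most 41 UMIs on a side, 4 of 9 receptors were at least 2-fold higher and 0 lower, beside 6.86% and 2.87% of 12291 genes.

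In cells with Arg1, the arginase of alternatively activated macrophages, Stab1 had 80.7 CPM, against 39.6 CPM without (1.03, 0.94 to 1.11), and Mrc1 had 339 CPM, against 174 CPM (0.96). Cd36 (-0.46) and Axl (-0.18) lay below 0 in the same cells. Stab1 and the sparse Marco, Cd163 and Lyve1 made 4 of 9 receptors at least 2-fold higher, with 0 lower, beside 2.77% and 1.29% of 12280 genes. Cells with Cxcl9, a chemokine induced by interferon gamma, had 186 CPM of Axl, against 115 CPM without (0.69, 0.63 to 0.76), and 22.0 CPM of Cd36, against 14.1 CPM (0.64, 0.46 to 0.84), while Mrc1 (-0.11) and Stab1 (-0.29) lay below 0. Only Marco and Lyve1, with 4 UMIs and 1 UMI in the cells without Cxcl9, were at least 2-fold higher, and 0 of 9 were lower, beside 4.67% and 2.29% of 12279 genes.

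Mrc1 was further higher in cells with Inhba, Nrg1 or Thbs1, at 242 CPM against 151 CPM without (0.68, 0.59 to 0.77), where Stab1 had -0.17 (-0.31 to -0.02) and Axl -0.31. No receptor passed 2-fold in either direction there, beside 5.84% of 12337 genes higher and 3.99% lower. For Nr4a2, the transcription factor the study is about, Msr1 had 268 CPM in the 1281 cells with it, against 327 CPM in the 3089 without (-0.29, -0.33 to -0.24), and Stab1 had 46.1 CPM, against 59.9 CPM (-0.38, -0.48 to -0.27). Mertk (0.01), Axl (0.02) and Cd36 (0.12) had intervals that held 0. Of the 8 receptors that passed the minimum, 2 were at least 2-fold lower with Nr4a2, Marco on 6 and 34 UMIs and Cd163 on 4 and 18, and 0 were higher, beside 1.29% and 1.54% of 12054 genes. No receptor passed 2-fold with the type I interferon genes Rsad2, Ifit1 and Ifit2, beside 3.28% of 12239 genes higher and 1.35% lower. The same held with the cycle genes Top2a and Mki67, beside 7.97% of 12253 genes higher and 2.45% lower.

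**Figure D4:**
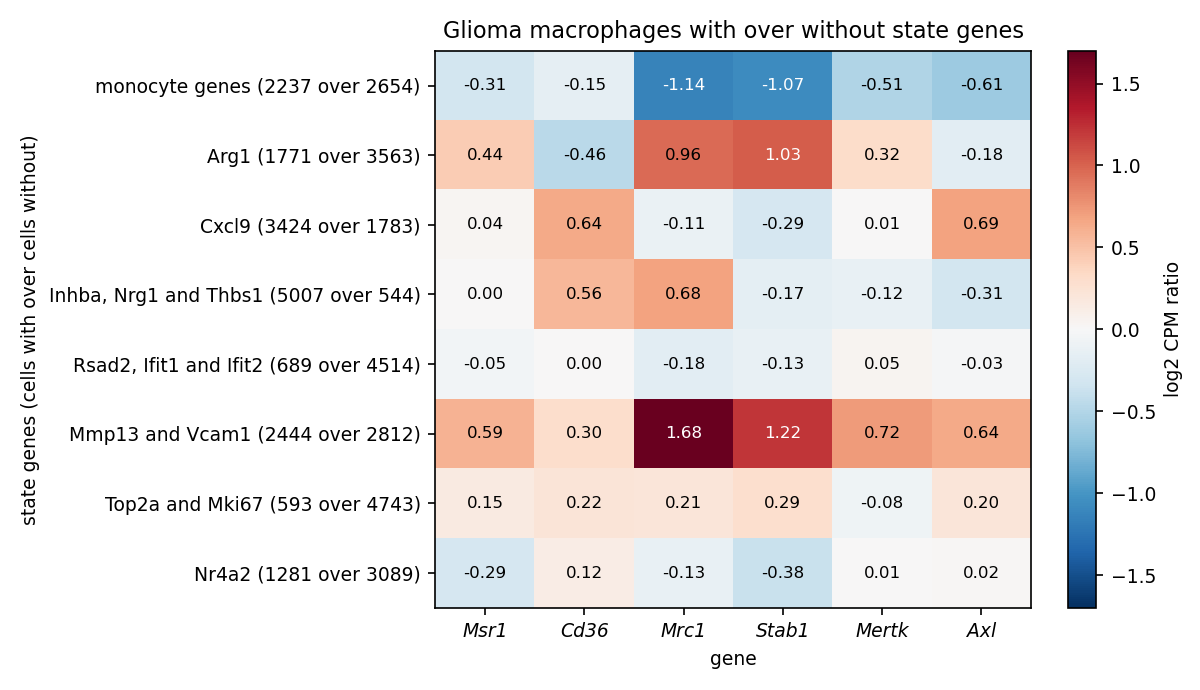
Log2 CPM ratio of 6 receptors in glioma macrophages with at least 3 UMIs of the state genes over those with none; rows give the state genes and the cells on each side, and colour repeats the printed ratio. Mrc1 and Stab1 were lowest in the monocyte row, at -1.14 and -1.07, and highest in the Mmp13 and Vcam1 row, at 1.68 and 1.22. Msr1 and Mertk were lowest and highest in the same rows, within 2-fold. Marco, Cd163 and Lyve1 are left out for their few UMIs.

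Counting how many of the 9 receptors were seen in a cell at 2000 UMIs, 31.5% of glioma macrophages, 88.1% of control border macrophages and 18.3% of control microglia held at least 2. Among the glioma macrophages, Mrc1 and Stab1 were both seen in 4.07% of cells, where the product of their shares was 2.43%, and Msr1 and Mrc1 in 13.4%, where it was 11.2%. Msr1 and Axl were both seen in 10.01%, beside a product of 10.2%, and Mertk and Axl in 2.25%, beside 1.95%. Cd36 and Mrc1, both seen in 0.654%, lay under their product of 0.901%. In control microglia the main pair was Stab1 and Mertk, both seen in 16.6% of cells, beside 15.4%. Such shares are low at this depth and are given as a description.

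**Figure D5:**
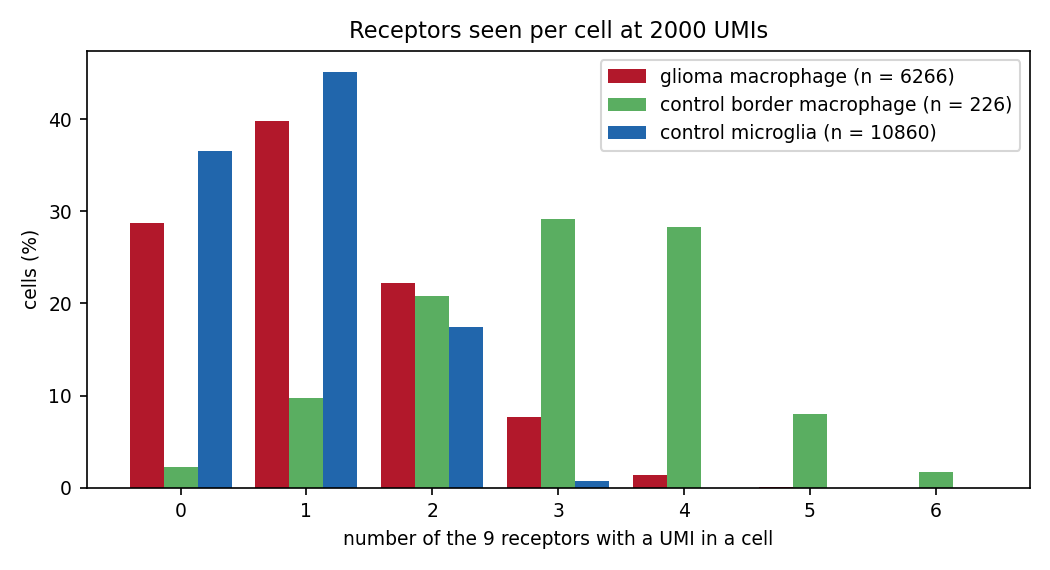
Share of cells (%) in which 0 to 6 of the 9 receptors had a UMI after thinning to 2000 UMIs, in glioma macrophages (red), control border macrophages (green) and control microglia (blue). At least 2 receptors were seen in 88.1% of control border macrophages, against 31.5% of glioma macrophages and 18.3% of control microglia.

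The partners of these receptors were taken from a list of 59 other scavenger receptors, efferocytosis receptors, bridging molecules, engulfment proteins, sheddases or brakes and regulators. Of these, 54 passed the minimum in glioma macrophages against control microglia, with 15 at least 2-fold higher and 23 at least 2-fold lower, beside the 16.6% and 33.2% of all genes tested. Among the 9 bridging molecules 3 were higher and 6 lower. Gas6, the ligand of both kinases, had 7.98 CPM in glioma macrophages, against 117 CPM in control microglia (-3.87), and Pros1, which encodes protein S, had 5.05 CPM, against 160 CPM (-4.98). Thbs1, which encodes thrombospondin, a ligand of Cd36, had 1940 CPM, against 14.4 CPM (7.07), and Anxa1, a lipid-binding protein of dying cells, 46.2 CPM, against 1.34 CPM (5.10).

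Of the other efferocytosis receptors, 11 of 12 passed, 3 higher and 6 lower. All list counts in this comparison stand beside 16.6% of all genes tested higher and 33.2% lower. Cd300lf, a phosphatidylserine receptor, had 141 CPM in glioma macrophages, against 3.32 CPM in control microglia (5.41). Itgb3, an integrin chain that binds Mfge8, had 0.449 CPM, against 22.3 CPM (-5.61), and Trem2, a lipid receptor of microglia, 149 CPM, against 2326 CPM (-3.97). Of the other scavenger receptors 10 of 14 passed, 4 higher and 4 lower, with Scarf1 at 13.0 CPM in glioma macrophages, against 0.263 CPM in control microglia (5.6), and Cd5l at 1 UMI, against 37 UMIs (-4.83, -10.74 to -2.83). The engulfment proteins had 1 higher and 4 lower of 9 that passed, the sheddases and brakes 2 and 2 of 7, and the regulators 2 and 1 of 8. Nr1h3, which encodes the sterol receptor LXR alpha, had 29.7 CPM, against 0.859 CPM (5.10).

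In glioma microglia against control microglia, 10 of the 52 partners that passed were at least 2-fold higher and 8 lower, beside 12.3% of all genes tested each way. The largest ratios were those of Cd300lf (5.79), Colec12 (5.55), a membrane collectin, Thbs1 (4.43), Olr1 (3.43), the LOX receptor for oxidised lipoproteins, and Anxa1 (2.37, interval -0.14 to 3.74). Mfge8 (-2.72, interval -8.61 to -0.82), Elmo1 (-2.52), Itgb3 (-2.16, interval -5.53 to -0.63), Itgb5 (-1.64) and Klf4 (-1.38) had the smallest. Colec12, Anxa1, Mfge8 and Itgb3 rested on at most 5 UMIs in the glioma cells.

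Border macrophages of glioma against those of control had 10 of 48 partners higher and 12 lower, beside 14.9% and 16.3% of all genes tested. Timd4, a phosphatidylserine receptor of resident macrophages, and Cd209a, a lectin, had no UMI in glioma border macrophages, against 84 and 192 UMIs in control border macrophages, which makes them at least 11.9-fold and at least 27.2-fold lower against a floor of 3 UMIs in the glioma sum. Colec12 (-3.94), Trem2 (-2.23) and Pros1 (-2.07) were lower too, while Thbs1 (5.03), Socs1 (3.93) and Anxa1 (2.49) were higher. Cd300lf (6.46, 5.09 to 8.97) and Nr1h3 (5.79, 4.41 to 8.31) were higher against 3 UMIs each in control border macrophages.

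Among monocyte-marker macrophages against the other glioma macrophages, 1 of 51 partners was higher and 4 were lower, beside 2.75% and 3.83% of all genes tested. Olr1 had 1.54, and Socs3 (0.86), Thbs1 (0.81), Cd47 (0.59) and Cd209a (0.58, interval -0.36 to 1.52) followed within 2-fold. Gas6 (-2.63), Nr1h3 (-1.18), C1qc (-1.05) and C1qa (-1.03) were at least 2-fold lower and Maf had -0.85, beside Mrc1 and Stab1 at -1.14 and -1.07. In control border macrophages against control microglia, 12 of 54 were higher and 11 lower, beside 13.4% and 9.65% of all genes tested. The higher ones were led by Timd4 (8.98), Colec12 (8.34), Cd209a (5.63), Pparg (3.78) and Scarf1 (3.69). The smallest ratios were those of Itgb3 (-2.89), Havcr2 (-2.24), Itgb5 (-1.84), Elmo1 (-1.58) and Trem2 (-1.41). Pparg, Scarf1 and Itgb3 rested on 5, 7 and 6 UMIs in control border macrophages.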

How the data were processed

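Per the submitters' processing notes, Cell Ranger 3.0.2, STAR and Seurat 3 were used, with builds GRCh38 and mm10; all gene identifiers were mouse. Per the labels' protocols the kit was version 2 or 3. The authors deposited raw UMI counts per gene and barcode, unfiltered, as 1 matrix per group (159689787 UMIs for glioma and 124023146 for control), with no normalization and no map from barcodes to samples.

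Barcodes were filtered and gated as described above. Gate limits were set after the marker distributions had been seen, and Fscn1 was left out of the dendritic gate because control microglia held it. Cells that passed the gates of more than 1 lineage (661 in glioma, 387 in control) were left out as possible doublets, and no doublet caller was run. UMIs were summed per class and divided by the class total. Ratios are log2 of CPM ratios with 0.5 UMIs added to each sum, for genes with at least 20 UMIs over both sums. Intervals were Poisson for levels, Clopper-Pearson for shares and conditional binomial for ratios. A ratio against 0 UMIs was set against 3 UMIs. Free RNA was read from barcodes with 10 to 100 UMIs, leaving out any that reached 300 UMIs in the opposite matrix. The ratio code was tested on simulated sums.

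Partners named are the 5 with the largest and the 5 with the smallest ratio per comparison. The receptors, partner lists, states and comparisons were chosen with earlier results of these data known. Clec7a is not analysed here. Tools were Python 3.11.15, numpy 2.4.6, scipy 1.17.1, pandas 2.3.3 and matplotlib 3.10.9.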

Additional observations from a re-analysis of the deposited data

Results flagged for a closer look

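Glioma-over-control ratios of 2 receptors ran in opposite directions in microglia and in border macrophages, each gated by the same rule in both libraries. As given above, the gates did not give like cells in the 2 libraries. Cd36 had a log2 ratio of 5.22 in microglia (29 UMIs in 30 glioma cells, against 131 UMIs in 11402 control cells) and of -3.35 in border macrophages (18 UMIs in 43 glioma cells, against 443 UMIs in 228 control cells). Mrc1 had 2.94 in microglia and -0.82 in border macrophages. With 1 pooled library per group, neither difference between the classes was tested. Between the classes the glioma levels lay closer to each other than the control levels did. Cd36 had 57.6 and 19.6 CPM in glioma microglia and glioma border macrophages, against 1.56 and 205 CPM in their control counterparts.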

How the results depend on the processing

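Ratios of the receptors were recomputed under 11 other settings, among them 500 or 2000 UMIs per cell, 5% or 20% mitochondrial UMIs, doubled gate limits, free RNA subtracted at 5% of each class and shared barcodes left out. Of 425 recomputed ratios, 366 stayed within their counting interval, 59 moved outside it, and no ratio of at least 2-fold changed sign. Leaving out the barcodes that both libraries share moved none of them outside its interval. The number of receptors at least 2-fold lower in monocyte-marker macrophages was 1 with at most 5% mitochondrial UMIs (2078 against 1710 cells), and that in control border macrophages against control microglia was 1 with the mean of CPM over cells, where Mertk had -1.10. As given above, Cd163 left the former count on its few UMIs, and why Stab1 and Mertk moved was not tested. Lyve1 in glioma macrophages over control microglia ranged from -1.46 to 2.87. With free RNA subtracted, Lyve1 in control border macrophages over control microglia was 12.94. No paired analysis was possible because barcodes carry no map to samples, and for the same reason no sample could be left out in turn. Depth limits the results on the 30 glioma microglia, the 43 glioma border macrophages and the 27 control macrophages, where 3 UMIs are worth 5.96, 3.27 and 10.8 CPM.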
